A study of Mus musculus with 32 samples.

Results

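Receptors of metabolic hormones were examined in cells dissociated from the median eminence (ME) of mice, across all cell types that could be defined by marker genes, vascular and neuronal cells included. The set comprised 8 genes, chosen by symbol out of the 27998 genes of the matrix. They were the insulin receptor Insr, the leptin receptor Lepr, the growth hormone receptor Ghr, the incretin receptors Gipr and Glp1r, the ghrelin receptor Ghsr and the adiponectin receptors Adipor1 and Adipor2. The ME of 5 C57B/L6 mice fasted overnight for 16 h and of 5 mice refed with normal chow for 1 h after the same fast was pooled by condition, at an age of 40 to 47 days. The tissue was dissociated with papain and sorted for live single cells, and each condition gave 2 droplet libraries. The barcode of each cell carries 1 of 4 numbers, and neither the labels nor the files say which library or condition a number stands for. The 5982 cells therefore count as 1 sample that mixes both conditions. Fasted and refed cells were not compared, no test between groups of mice was possible, and the 4 barcode numbers were used to show how far a level varied. Because the deposited values are counts of unique molecular identifiers (UMIs), which count each captured transcript once, a level is stated in counts of a gene for every 1000000 UMIs found in the same cells (CPM). Its 95% interval is exact for Poisson counts. Intervals cover counting error and hold no difference between mice.

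The ME lies at the base of the hypothalamus, where fenestrated capillaries let hormones of the blood reach nerve terminals, tanycytes and glia. The receptors studied here carry signals of energy balance by different routes. Insr is a receptor tyrosine kinase that signals through Irs proteins, phosphatidylinositol 3-kinase and Akt, while Lepr and Ghr are cytokine receptors that act through Jak2 and Stat proteins. Gipr, Glp1r and Ghsr are G-protein-coupled receptors for the gut hormones GIP, GLP-1 and ghrelin, and Adipor1 and Adipor2 are membrane proteins of the progestin and adipoQ receptor family. In the arcuate nucleus next to the ME, neurons that make Agrp and Npy drive feeding and are known targets of ghrelin and leptin.

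Clusters of cells were named by 13 lists of marker genes, and a name means that the cells resembled that type. The 13 types held 1419 astrocyte-like, 1084 tanycyte-like, 666 mature oligodendrocyte-like, 508 neuron-like, 402 microglia-like, 311 OPC-like, 268 VLMC-like (vascular and leptomeningeal), 200 ependymocyte-like, 132 macrophage-like, 129 differentiating OPC-like, 88 pars tuberalis-like, 84 endothelial-like and 75 mural-like cells. All markers of its own list were detected in each type. A median of 3837 UMIs was counted per cell, and the types differed in depth, from 2245.5 UMIs in endothelial-like to 13412 in neuron-like cells. Barcode numbers 1 to 4 held between 1359 and 1642 cells each, and 21 barcode sequences occurred under more than 1 number.

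Of the 8 receptors, 7 were detected and 5 had at least 50 UMIs over all cells. Adipor1 was counted 2653 times, Adipor2 1234 times, Ghr 831 times, Insr 476 times, Lepr 112 times, Gipr 41 times and Ghsr 40 times. Glp1r had no UMI in any of the 5982 cells, which allows a level of up to 0.102 CPM over all cells and a share of cells with a UMI of up to 0.0502%. The gene is annotated on chromosome 17 from 30901817 to 30940791 on the plus strand (GRCm38). Since the libraries read the ends of transcripts, a count of 0 limits the detected ends and does not show that the receptor was absent. A cell type was taken to lead a gene when its CPM was at least 2 times that of the next type. By this rule 1 of the 5 receptors with at least 50 UMIs had a leading type, which was Insr, beside 22.0% of the 13953 genes of that depth. The highest type of Adipor1, Adipor2, Ghr and Lepr was 1.06 to 1.43 times the next.

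**Figure D1:**
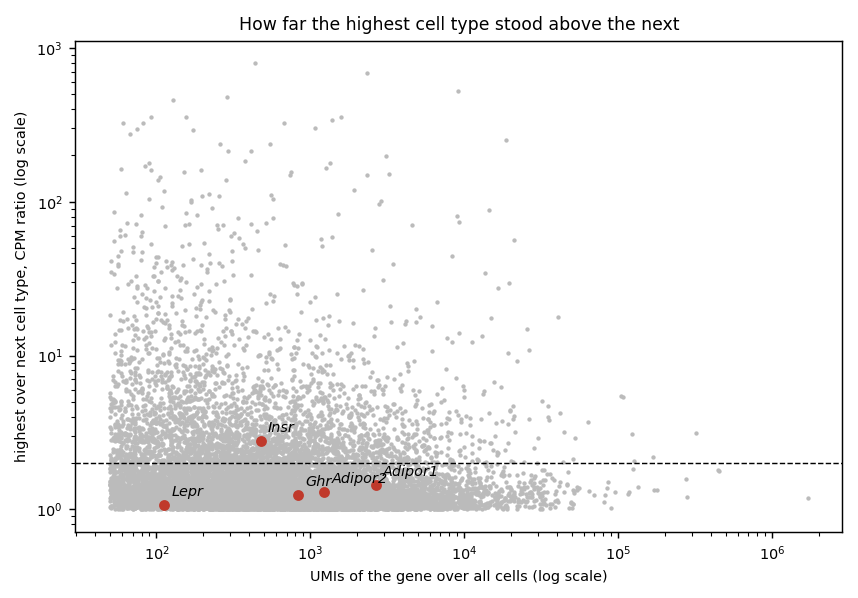
Ratio of the CPM of the highest cell type to that of the next type (log scale) against the UMIs of the gene over all cells (log scale), for 13950 genes (grey) and the 5 receptors with at least 50 UMIs (red). The dashed line marks the fold of 2 that Insr passed at 2.77, while Adipor1, Adipor2, Ghr and Lepr lay below it.

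Insr was highest in endothelial-like cells, a cluster led by Cldn5, Slco1a4 and Ly6c1. Whether endothelial-like cells came from the fenestrated capillaries of the ME was not tested. These cells held 17 Insr UMIs in 15 of 84 cells, or 79.1 CPM (95% interval 46.1 to 127). The level was 111, 75.5, 60.9 and 62.5 CPM in the 4 barcode numbers, from only 6, 6, 3 and 2 UMIs. Every one of these levels lay above that of any barcode number of the astrocyte-like cells, which came next with 25.5 to 31.8 CPM. The ratio of endothelial-like to astrocyte-like cells, 79.1 against 28.6 CPM, was 2.77 (1.56 to 4.63). The other vascular cells did not share the level. Insr lay at 13.5 CPM in VLMC-like and 13.3 CPM in mural-like cells, 5.84 times (2.58 to 13.8) and 5.93 times (1.71 to 31.6) below endothelial-like cells, and the ranges over the barcode numbers did not overlap. The 3 UMIs of mural-like cells leave that ratio wide. Among the glia that line and surround the ventricle, astrocyte-like cells exceeded tanycyte-like cells 2.04 times (1.48 to 2.81), 28.6 against 14.0 CPM, in 4 of 4 barcode numbers. From the ependymocyte-like cells at 21.3 CPM down to the pars tuberalis-like cells at 7.95 CPM, no neighbours in the order differed beyond counting error. Neuron-like cells had 12.3 CPM, with values of 12.7, 8.36, 13.3 and 12.9 CPM in the barcode numbers. Insr was positive in 14.4% of neuron-like cells, more than in the 7.54% of astrocyte-like and 5.22% of microglia-like cells, but this share followed depth. After each cell was thinned to 2000 UMIs, 2.57% of neuron-like, 6.10% of astrocyte-like, 3.33% of microglia-like and 16.1% of endothelial-like cells had an Insr UMI. Insr is on chromosome 8 from 3122061 to 3279617 on the minus strand.

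The adiponectin receptors were both highest in endothelial-like cells and both lowest, of the named types, in neuron-like cells. Adipor1 reached 274 CPM (209 to 354) in endothelial-like cells, with 387, 214, 183 and 375 CPM in the barcode numbers. It was 1.43 times (1.01 to 2.01) the 192 CPM of macrophage-like cells, although the barcode numbers of the types overlapped. Below these, 179 CPM were counted in mature oligodendrocyte-like and 168 CPM in microglia-like cells, and macrophage-like cells did not differ from the former, nor the former from microglia-like cells, beyond counting error. Adipor1 was lowest in neuron-like cells at 43.7 CPM (38.8 to 49.1), a level 0.260 times (0.218 to 0.311) that of microglia-like and 0.631 times (0.536 to 0.743) that of tanycyte-like cells, and neuron-like cells were lower in each of the 4 barcode numbers in both comparisons. Adipor2 showed a different second rank. It reached 158 CPM (110 to 221) in endothelial-like cells, with 185, 189, 101 and 125 CPM in the barcode numbers, 1.29 times (0.887 to 1.83) the 122 CPM (112 to 133) of mature oligodendrocyte-like cells. No other type exceeded 47.6 CPM, the level of ependymocyte-like cells. Microglia-like and macrophage-like cells, high for Adipor1, had 32.9 and 25.8 CPM of Adipor2. Neuron-like cells had 17.7 CPM (14.6 to 21.2). The VLMC-like cells next above them, at 22.2 CPM, did not differ from them beyond counting error, with a ratio of 1.25 (0.717 to 2.07). Ependymocyte-like cells were above tanycyte-like cells for Adipor2, 47.6 against 28.7 CPM, with tanycyte-like cells at 0.603 times (0.429 to 0.861) the ependymocyte-like level, and without overlap of the barcode numbers. For Adipor1 the ratio of the same types was 0.977 (0.752 to 1.28). Adipor1 lies on chromosome 1 from 134415378 to 134433351 on the plus strand and Adipor2 on chromosome 6 from 119353150 to 119417704 on the minus strand. Within the vessel wall, endothelial-like cells exceeded VLMC-like cells 3.38 times (2.34 to 4.87) for Adipor1 and 7.14 times (3.92 to 13.4) for Adipor2, and mural-like cells 2.20 times (1.38 to 3.59) and 4.45 times (2.02 to 11.1).

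Endothelial-like cells held the highest level of 3 receptors, from 84 cells and 215009 UMIs. Markers of other types were present in them beside 28650 CPM of the 10 endothelial markers. Of the 10 tanycyte markers 8 were detected and summed to 2767 CPM, with 1808 to 3534 CPM over the barcode numbers and 2270 CPM in the other named types, and Dio2 and Scn7a were at 0. The 10 mural markers summed to 1372 CPM, with 0 to 1949 CPM over the barcode numbers and 364 CPM in the other named types. The 10 VLMC markers summed to 1181 CPM, with 516 to 1847 CPM over the barcode numbers and a higher 1814 CPM in the other named types. The 10 ependymocyte markers summed to 1223 CPM, with 832 to 1967 CPM, and to a higher 1406 CPM in the other named types. Myh11 and Cspg4 of the mural list and Lum and Col3a1 of the VLMC list were at 0. In mural-like and VLMC-like cells Insr, Adipor1 and Adipor2 were lower than in endothelial-like cells, as given above. Of the 10 astrocyte markers 9 were detected, at 656 CPM in sum against 4590 CPM in the other named types. Of the 10 mature oligodendrocyte markers 9 were detected, at 735 CPM against 4070 CPM. The part of markers of other types in the receptor levels was not tested.

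**Figure D2:**
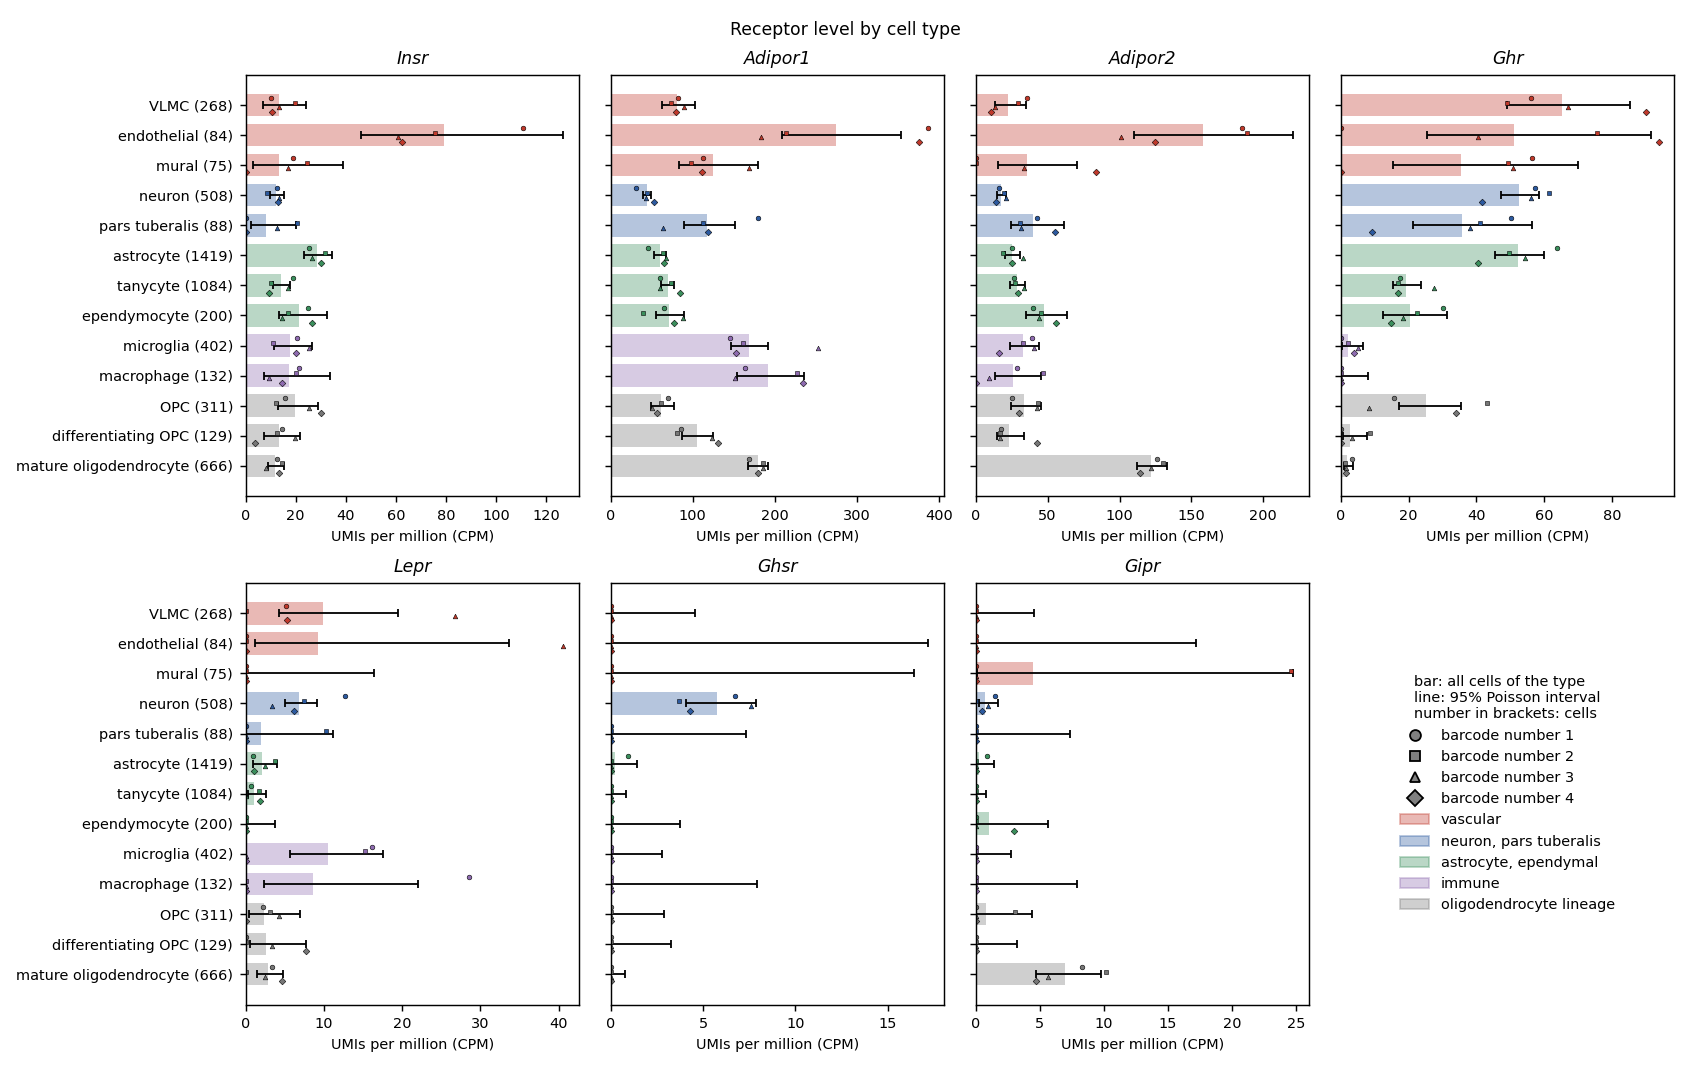
CPM of 7 receptors (x axes, from 0, each with its own range) in the 13 named cell types (y axis, with the number of cells). Bars give all cells of a type, lines the 95% Poisson interval and symbols the 4 barcode numbers, and the endothelial-like bars are the longest for Insr, Adipor1 and Adipor2, whereas Ghr is shared by VLMC-like, neuron-like, astrocyte-like and endothelial-like cells.

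Ghr, which binds growth hormone, divided the cell types into a group with and a group nearly without it. VLMC-like cells, which form the fibrous sheath of vessels and meninges, came first with 65.2 CPM (48.9 to 85.3), and had 56.2, 49.1 and 67.0 CPM in barcode numbers 1 to 3 and the highest value in number 4. Neuron-like cells had 52.7 CPM (47.3 to 58.5), astrocyte-like cells 52.3 CPM (45.4 to 59.9) and endothelial-like cells 51.2 CPM (25.5 to 91.5), and no neighbours among these 4 types differed beyond counting error. In endothelial-like cells the barcode numbers ran from 0 to 93.7 CPM. Pars tuberalis-like, mural-like, OPC-like, ependymocyte-like and tanycyte-like cells followed, from 35.8 to 19.3 CPM. The largest step came below them. From tanycyte-like cells at 19.3 CPM to differentiating OPC-like cells at 2.64 CPM the level fell 7.30 times (2.42 to 36.1). Microglia-like cells had 2.24 CPM, mature oligodendrocyte-like cells 1.95 CPM and the 132 macrophage-like cells no UMI, which allows up to 6.46 CPM. As a reference, 0.746% of microglia-like cells were Ghr-positive at a median of 3079.5 UMIs per cell, beside 17.9% in VLMC-like cells at 2887.5 UMIs and 7.01% in tanycyte-like cells at 4126 UMIs. Astrocyte-like cells exceeded tanycyte-like cells 2.71 times (2.10 to 3.52) and ependymocyte-like cells 2.58 times (1.63 to 4.31), in 4 of 4 barcode numbers each. Tanycyte-like cells consisted of 2 clusters, led by Scn7a and by Kctd14, with 26.2 and 12.6 CPM of Ghr. The Kctd14 cluster had 0.481 times (0.297 to 0.762) the level of the other and was lower in 4 of 4 barcode numbers, although the ranges of the numbers overlapped. The 2 astrocyte clusters, led by Itih3 and by Lrrc8a, had 49.0 and 58.6 CPM, a ratio of 0.836 (0.626 to 1.12). A cluster of 41 cells led by Ccn3 that took no name had 52.7 CPM of Ghr (25.3 to 96.9). Ghr lies on chromosome 15 from 3317760 to 3583492 on the minus strand, and 4 coding transcripts with 4 different ends were annotated, which gene counts do not separate.

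**Figure D3:**
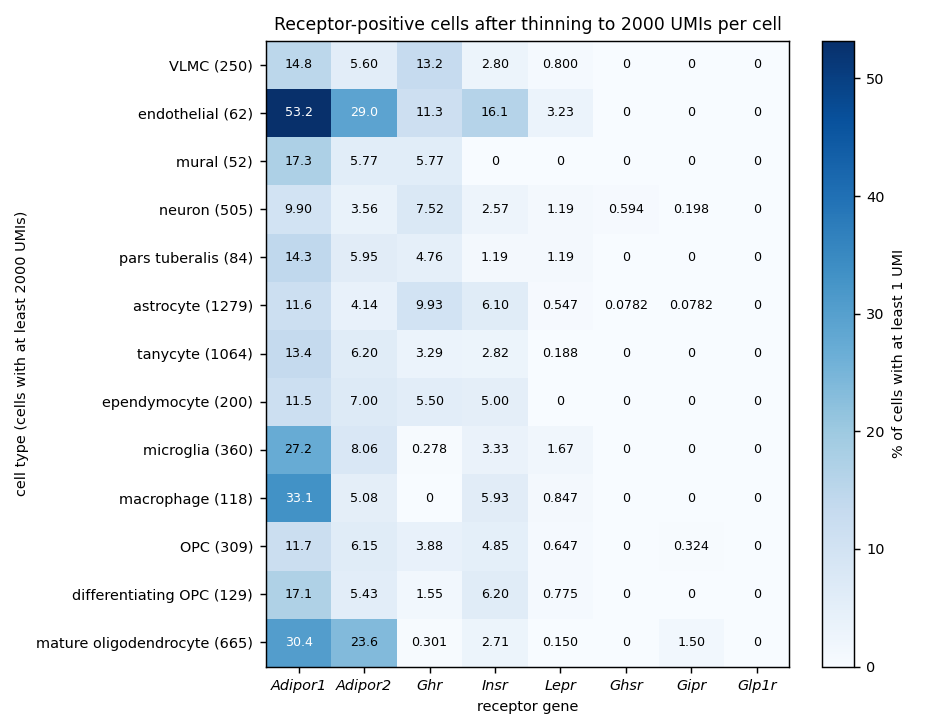
Percentage of cells with at least 1 UMI of each receptor (colour and number) after thinning every cell to 2000 UMIs, by cell type (rows, with the cells that had at least 2000 UMIs) and receptor (columns). At this equal depth 53.2% of endothelial-like cells were positive for Adipor1, 16.1% for Insr and 13.2% of VLMC-like cells for Ghr, and no cell was positive for Glp1r.

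The Ghr of neuron-like cells was concentrated in few of them. The 508 neuron-like cells were clustered again alone and gave 13 clusters, described here by their leading genes. The cluster led by Npy and Agrp held 233 of the 348 neuronal Ghr UMIs, or 67.0%, in 61 cells. Its level was 218 CPM (191 to 248), with 225, 284, 208 and 184 CPM in the barcode numbers, and 60 of its 61 cells were positive (98.4%), with up to 9 UMIs in a cell. All other neuron-like cells together had 20.8 CPM, so the cluster was 10.5 times (8.38 to 13.3) higher. It was also 3.35 times (2.47 to 4.6) above VLMC-like cells, the highest of the named types. Next came 21 cells led by Ghrh, the neuropeptide that releases growth hormone, with 99.1 CPM (68.6 to 138) and 16 positive cells. In this cluster the barcode numbers gave 40.9, 111, 103 and 115 CPM. Clusters led by Sst, by Pomc and by Trh had 38.9, 24.5 and 24.2 CPM, and clusters led by Cck, Slc18a2 and Egr2 had no Ghr UMI. Without the Npy and Ghrh clusters, neuron-like cells had 15.6 CPM, which was 0.808 times (0.590 to 1.10) the level of tanycyte-like cells, whereas all neuron-like cells had 2.73 times (2.15 to 3.49) that level. Ghr, Lepr and Adipor2 were among the variable genes used to cluster the neuron-like cells, and Ghr was among the leading genes of the Npy cluster, so the values of these 3 receptors over the clusters are descriptions. With all 8 receptors left out of that clustering, the Npy cluster had the same 218 CPM. In the clustering of all cells, which did not use Ghr, 67 cells led by Agrp and Npy had 207 CPM (182 to 235), beside 20.7 CPM in 366 neuron-like cells led by Gal.

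The detected UMIs of Ghsr, the receptor of ghrelin, were nearly all in neuron-like cells. Neuron-like cells held 38 of the 40 UMIs, at 5.75 CPM (4.07 to 7.89), with 6.71, 3.71, 7.62 and 4.31 CPM in the barcode numbers. The remaining UMIs were 1 in an astrocyte-like cell and 1 in the cluster led by Ccn3, and the other 11 named types had none. In endothelial-like, mural-like, macrophage-like and pars tuberalis-like cells, 0 UMIs allow 14.0, 13.3, 6.46 and 5.96 CPM. These limits lie above the neuron-like level, so a like level in these types was not detectable at this depth. In tanycyte-like cells, whose 0 UMIs allow up to 0.658 CPM, the level was lower than in neuron-like cells, and the exact interval of the ratio of neuron-like to tanycyte-like cells began at 6.77. Neuron-like cells were positive in 5.91%, beside 0 of 402 microglia-like cells, which allows a share of up to 0.746%, although neuron-like cells were read 13412 UMIs deep at the median against 3079.5. At 2000 UMIs per cell, 3 of 505 neuron-like cells had a Ghsr UMI. Within neuron-like cells the clusters led by Npy and by Ghrh again stood out, with 20.6 CPM (12.9 to 31.2) and 26.2 CPM (12 to 49.8). They held 22 and 9 of the 38 UMIs. The level of the Npy cluster was 27.2, 6.17, 25.1 and 16 CPM in the barcode numbers, and that of the Ghrh cluster 0, 12.3, 39.6 and 34.5 CPM. Relative to all other neuron-like cells, the Npy cluster was 7.14 times (3.58 to 14.5) higher and without overlap of the barcode numbers, whereas the ranges overlapped for the Ghrh cluster, which was 5.67 times (2.36 to 12.3) higher. A cluster of 58 cells led by Pomc, which also held 7087 CPM of Avp beside 1262 CPM of Pomc, had no Ghsr UMI, which allows 3.49 CPM. Ghsr lies on chromosome 3 from 27371351 to 27378010 on the plus strand.

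**Figure D4:**
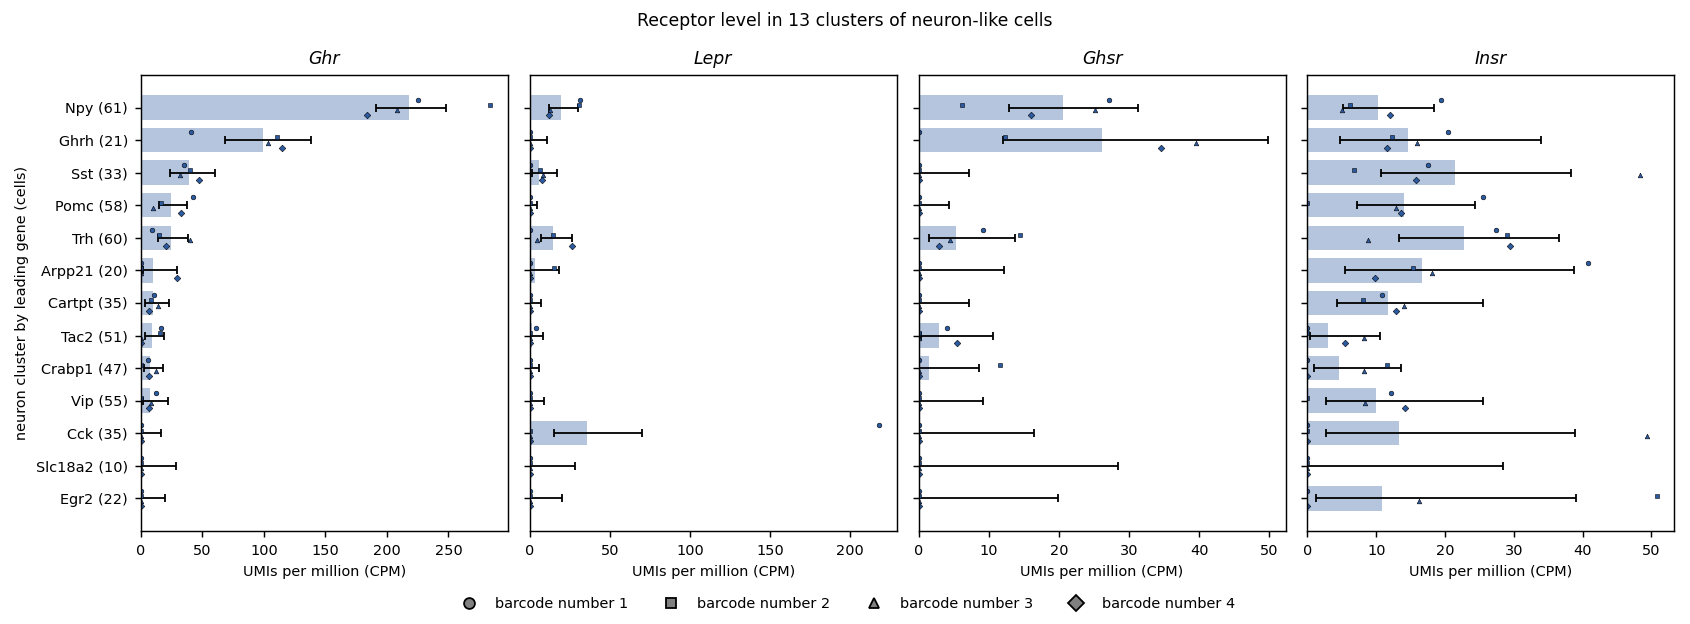
CPM of Ghr, Lepr, Ghsr and Insr (x axes, from 0) in the 13 clusters of neuron-like cells (y axis, by leading gene with the number of cells, in the order of Ghr). Bars give all cells, lines the 95% Poisson interval and symbols the barcode numbers; Ghr peaks at 218 CPM in the Npy cluster, and the Lepr bar of the Cck cluster comes from barcode number 1 alone.

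Lepr was sparse, and its order over the cell types could not be resolved. Neuron-like cells held 45 of its 112 UMIs, or 40.2% (31.0% to 49.9%), at 6.81 CPM (4.97 to 9.11), with 12.7, 7.43, 3.33 and 6.22 CPM in the barcode numbers. Higher levels were counted in microglia-like cells (10.5 CPM), VLMC-like cells (9.85 CPM), endothelial-like cells (9.30 CPM) and macrophage-like cells (8.61 CPM), from 14, 8, 2 and 4 UMIs, and no neighbours among these 5 types differed beyond counting error. Single cells weighed heavily in these values. The 14 UMIs of microglia-like cells came from 7 cells, all of barcode numbers 1 and 2, with 16.1 and 15.3 CPM there and 0 in numbers 3 and 4, and without the cell with the most UMIs the level was 7.49 CPM. Of the 8 UMIs of VLMC-like cells 5 were in 1 cell, and the 4 UMIs of macrophage-like cells were all in 1 cell of barcode number 1. Barcode number 3 held both UMIs of endothelial-like cells and 6 of the 8 of VLMC-like cells, whose level was 5.11, 0, 26.8 and 5.30 CPM in the barcode numbers. Over all types, 9 of the 76 Lepr-positive cells had 3 or more UMIs and held 38 of the 112 UMIs, and none of these 9 was called a doublet. Tanycyte-like cells had 5 Lepr UMIs in 1084 cells, or 1.10 CPM (0.356 to 2.56). Their share of positive cells was 0.461% at a median of 4126 UMIs, beside 1.74% of microglia-like cells at 3079.5 UMIs. Because Lepr was highest in microglia-like cells, their share is no background level. The comparison therefore cannot decide whether tanycyte-like cells expressed Lepr. Neuron-like cells were positive in 5.91%, but at 2000 UMIs per cell in 1.19%, beside 1.67% of microglia-like cells. Neuron-like cells exceeded tanycyte-like cells 6.21 times (2.47 to 20.1), without overlap of the barcode numbers. No Lepr UMI was found in 200 ependymocyte-like cells, which allows 3.04 CPM, or in 75 mural-like cells, which allows 13.3 CPM. Lepr was also the 1 receptor among the 2000 variable genes used to cluster all cells. Of its coding transcripts 3, with 3 different ends, were annotated on chromosome 4 from 101717404 to 101815352 on the plus strand, so the long signalling form and the short forms were counted as 1 gene.

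Among neuron-like cells, Lepr was found in the Npy cluster at 19.7 CPM (12.2 to 30.1), with 31.1, 30.8, 12.6 and 12 CPM in the barcode numbers and 17 of 61 positive cells. This was 4.54 times (2.40 to 8.52) the level of all other neuron-like cells, and the barcode numbers did not overlap. The cluster led by Trh had 14.8 CPM (7.37 to 26.4) from 11 UMIs. The cluster led by Cck had the highest value, 35.5 CPM, but all 8 of its UMIs were in 1 cell of barcode number 1. Neither the Pomc cluster nor the Ghrh cluster had a Lepr UMI, with limits of 3.49 and 8.74 CPM. The Pomc cluster held 7087 CPM of Avp beside 1262 CPM of Pomc, and Fezf1 and Adcyap1 were among its leading genes. Its name gives the leading gene and does not identify it as the Pomc neurons of the arcuate nucleus. The exact interval of the ratio of the Npy cluster to the Pomc cluster began at 4.19. Insr was highest in the Trh cluster with 22.8 CPM (13.3 to 36.5), 2.09 times (1.15 to 3.61) the other neuron-like cells and 1.07 times (0.472 to 2.52) the next cluster, led by Sst. Adipor1 ranged from 26.4 to 70.9 CPM over the 13 neuron clusters, without a cluster at 0. Adipor2 reached 75.4 CPM (43.9 to 121) in the Cck cluster, 4.81 times (2.70 to 8.10) the other neuron-like cells.

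Lepr and Ghsr were each found mostly in Ghr-positive neuron-like cells. Of the 30 Lepr-positive neuron-like cells 24 were also positive for Ghr, or 80.0%, against 27.6% of all neuron-like cells. Ghsr and Ghr shared 22 of 30 Ghsr-positive cells, and Lepr and Ghsr shared 7. Insr-positive neuron-like cells were positive for Ghr in 33 of 73, or 45.2%, and for Lepr in 11, or 15.1%, against 5.91% of all neuron-like cells. For Adipor2 the share went the other way, with 2 of 30 Lepr-positive and 1 of 30 Ghsr-positive cells also positive, against 20.1% of neuron-like cells. At 2000 UMIs per cell 4 neuron-like cells held both Lepr and Ghr and none held both Ghsr and Ghr, so most pairs were lost at that depth. The Npy cluster had a median of 18648 UMIs per cell, and 60 of its 61 cells were Ghr-positive. It held 17 of the 30 Lepr-positive and 16 of the 30 Ghsr-positive neuron-like cells. The shares above compare cells of different clusters and depths, so they do not show a link between receptors within a cluster. Over all types 50.6% of cells had at least 1 receptor, and 141 cells had 3 or more, of which 61 were neuron-like.

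The detected UMIs of Gipr, the receptor of GIP, were mostly in mature oligodendrocyte-like cells. The oligodendrocyte lineage held 33 of its 41 UMIs, 32 of them in mature oligodendrocyte-like cells at 6.94 CPM (4.74 to 9.79). OPC-like cells had 1 UMI, or 0.789 CPM, and differentiating OPC-like cells 0. Outside the lineage, neuron-like cells had 5 UMIs in 5 cells, or 0.757 CPM (0.246 to 1.77), and astrocyte-like, ependymocyte-like and mural-like cells 1 UMI each. The 1 UMI of mural-like cells gave 4.45 CPM (0.113 to 24.8), an interval that covers the level of mature oligodendrocyte-like cells. Named types outside the lineage had 0.407 CPM in sum, 11.5 times (5.23 to 28.9) less than the lineage. No Gipr UMI was found in 84 endothelial-like, 268 VLMC-like or 1084 tanycyte-like cells, which allows 14.0, 3.69 and 0.658 CPM. The limit for endothelial-like cells lies above the level of mature oligodendrocyte-like cells, so a like level there was not detectable at this depth. Gipr lies on chromosome 7 from 19156061 to 19166127 on the minus strand.

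Sequence upstream of an annotated start is shown for Ghsr, detected in 2 of the 13 types, and Adipor2, detected in all 13. Ghsr had 40 UMIs and Adipor2 1234, and fewer UMIs can be found in fewer types. The numbers of types therefore do not compare how broad the 2 patterns are. The RefSeq promoter table for GRCm38.p6 matched 6 of the 8 receptors, and Insr and Gipr had no entry. Each sequence is the 250 bases before the start, in the direction of the gene, with every CG pair in capitals. Ghsr is at chr3:27371101-27371350 on the plus strand and Adipor2 at chr6:119388735-119388984 on the minus strand.
Ghsr: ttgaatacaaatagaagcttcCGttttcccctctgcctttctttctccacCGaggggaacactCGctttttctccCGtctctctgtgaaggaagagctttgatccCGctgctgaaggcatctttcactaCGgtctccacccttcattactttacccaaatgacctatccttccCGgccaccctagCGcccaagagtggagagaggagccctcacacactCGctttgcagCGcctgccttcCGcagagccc
Adipor2: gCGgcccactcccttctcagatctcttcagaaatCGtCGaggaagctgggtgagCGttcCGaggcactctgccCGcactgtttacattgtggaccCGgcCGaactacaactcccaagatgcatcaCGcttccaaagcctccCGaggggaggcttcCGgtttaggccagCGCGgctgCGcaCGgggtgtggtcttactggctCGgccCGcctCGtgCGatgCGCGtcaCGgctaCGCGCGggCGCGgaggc
The stretch of Ghsr held 11 CG pairs and that of Adipor2 27, against a median of 6 over 32851 promoters. Fewer pairs than Ghsr were found in 64.4% of all promoters and fewer than Adipor2 in 91.4%. Neither held TATAAA on either strand, which 12.4% of all promoters did. The undetected Glp1r had 26 CG pairs. The letters describe the window and say nothing of its use in these cells.

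Genes linked to the signalling of each receptor were taken from lists. The lists also hold inhibitors and target genes, so not every listed gene carries the signal of its receptor. Of 21 genes of insulin signalling, all had at least 50 UMIs and 3 had a leading type, beside the 22.0% of all genes. These were Grb14, an adaptor that inhibits the insulin receptor, at 773 CPM in mature oligodendrocyte-like cells, Enpp1, another inhibitor, at 123 CPM in VLMC-like cells, and Irs4, an insulin receptor substrate, at 105 CPM in neuron-like cells. In endothelial-like cells, where Insr was highest, the substrates Irs1, Irs2 and Irs4 had no UMI, beside 14.0 CPM that a count of 0 allows there. The highest levels of the list were those of Tsc22d3 (2012 CPM, VLMC-like), Grb14, Pik3r1 (420 CPM, OPC-like) and Ptpn1 (201 CPM, microglia-like). Of 15 genes of leptin and growth hormone signalling, 14 had at least 50 UMIs and 0 had a leading type, beside the same 22.0%. Socs3, a feedback inhibitor of cytokine receptors, had 262 CPM in VLMC-like, 187 CPM in mural-like and 177 CPM in microglia-like cells, and 9.08 CPM in neuron-like and 3.31 CPM in astrocyte-like cells. Igf1, a target of growth hormone, was highest in macrophage-like cells at 187 CPM, where Ghr had no UMI, and in VLMC-like cells had 126 CPM. Leprot had 176 CPM in microglia-like cells, Ptpn11 161 CPM in mature oligodendrocyte-like cells, and Igfals had 1 UMI.

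Of 20 genes that act below G-protein-coupled receptors, 7 had a leading type, beside the 22.0% of all genes. The highest were Gnas, which encodes the stimulatory G protein, at 2288 CPM in neuron-like cells, Prkacb and Prkaca, catalytic subunits of protein kinase A, at 363 and 336 CPM in neuron-like cells, and Rapgef4, a cAMP-activated exchange factor, at 312 CPM in endothelial-like cells. Of 10 genes of adiponectin signalling 9 had at least 50 UMIs and 1 had a leading type, beside the same 22.0%, namely Appl2, an adaptor of the adiponectin receptors, at 247 CPM in astrocyte-like cells. Stk11 had 174 CPM in ependymocyte-like cells, Cdh13, a binding partner of adiponectin, 171 CPM in differentiating OPC-like cells, and Prkag1 99.7 CPM in VLMC-like cells. Of 26 related receptors 18 had at least 50 UMIs and 6 had a leading type, beside 22.0%. Igf1r, the receptor closest in kind to Insr, was led by endothelial-like cells as well, at 307 CPM against 100 CPM in ependymocyte-like cells. The highest levels of this list were those of Ramp2 (1507 CPM, endothelial-like), Ramp1 (897 CPM, ependymocyte-like), Igf1r and Npy1r (231 CPM, mural-like). Insrr, Glp2r and Gfral had no UMI, and Gcgr had 2. The ligands of the 8 receptors were nearly undetected. Ins1, Lep, Gip, Gcg and Adipoq had no UMI, Ins2 had 3 and Ghrl 1, and all 26 UMIs of Gh, growth hormone of the anterior pituitary, were in 1 macrophage-like cell. Of 21 neuropeptides and related genes used to describe neuron clusters 18 had at least 50 UMIs and 12 had a leading type, beside 22.0%, which was neuron-like for 8.

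Genes with a pattern most like that of a receptor were found by Pearson's correlation of log2 CPM, with 10 CPM added, over the 24 clusters, among genes with at least 200 UMIs. For Insr they were Nsun6 (0.825), Slc31a1 (0.795) and 1810013L24Rik (0.787). For Ghr they were P4ha2 (0.782), Amotl1 (0.777) and Acbd4 (0.774), and for Lepr Mafg (0.720), Stxbp5 (0.654) and Ywhah (0.651). Adipor1 was matched best by Frmd4b (0.860), Arhgef2 (0.847) and Elovl1 (0.823), and Adipor2 by Bcl2l1 (0.833), Prr5l (0.826) and Dapk2 (0.824). The clusters share libraries, and the depth and number of cells differ between them, so the coefficients are descriptions. With the 13 named types in place of the clusters, none of the 3 genes of Insr and 1 of 3 for each of the other 4 receptors, namely Mafg, Acbd4, Frmd4b and Bcl2l1, were found again.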

How the data were processed

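Single cells of the ME of fasted and refed mice were measured by 10x Genomics 3' chemistry. The authors mapped reads to mm10 with Cell Ranger 2.0 and deposited UMI counts per gene and cell, without normalization, in 1 matrix of 5982 cells and 27998 genes. The 32 sample records are lanes and index parts of 4 libraries. Symbols and positions came from GENCODE for 27645 genes.

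Counts were scaled and log-transformed, and 2000 variable genes, 30 principal components, 15 neighbours and Leiden resolution 1 (scanpy 1.11.5) gave 24 clusters. A cluster took the name of a marker list with a score of at least 0.3, at least 1.5 times the next, and at least 3 markers 4 times above the median cluster. Haemoglobin made up at least 10% of the UMIs of 3 cells, which took no type, and clusters led by Gfap, Dio3, Ccn3 and Ccl5 were not named. Scrublet called 50 doublets (0.836%), which were kept. CPM intervals are exact Poisson, shares exact Clopper-Pearson and ratios exact conditional binomial, all at the 95% level. A count of 0 allows 3 counts. UMIs of 1 cell are not independent.

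The steps were tested on simulated data. The receptors, gene lists and marker lists were chosen with earlier results of these data known. Named genes are the 8 receptors, for each receptor with at least 50 UMIs the 3 genes most like it, and of each list the genes with the 4 highest cell-type CPM and those under 3 UMIs. Other genes in the text lead a cluster or a type, or (Irs1, Irs2, Irs4) were named after their values were seen. Alternatives were other clusterings, doublets or low-quality cells left out, receptors left out of the clustering, thinning to 2000 UMIs, each barcode number left out, and other thresholds for a leading type.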

Additional observations from a re-analysis of the deposited data

Results flagged for a closer look

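In 32 sets of the 4 barcode numbers (receptor and cell type with at least 30 UMIs), 4 had 1 number far from the other 3, where chance would give about 1 in 20. The numbers may mix conditions in a way that is not known here. Adipor1 in microglia-like cells was 253 CPM in barcode number 3, beside 145 to 161 CPM in the others. Ghr in tanycyte-like cells was 27.4 CPM in number 3, beside 16.9 to 17.5 CPM. Adipor1 in astrocyte-like cells was 45.6 CPM in number 1, beside 63.6 to 66.9 CPM. Insr in neuron-like cells was 8.36 CPM in number 2, beside 12.7 to 13.3 CPM.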

How the results depend on the processing

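No paired analysis was possible because the 4 barcode numbers are not tied to the replicate numbers or conditions of the labels, and no result comes from a test. Of 231 recomputed values 218 stayed within the main interval or count and 13 moved. Of the 5 receptors with at least 50 UMIs, 1 had a leading type in the main analysis and 2 with K-means clusters. K-means named 5 types, without endothelial-like or neuron-like cells, so its count of 2 is not comparable with counts over 13 types. At a fold of 4 the count was 0 of 5, and with at least 500 UMIs per gene 0 of 3. Of all genes 3075 (22.0%) had a leading type, against 1130 (8.10%) at a fold of 4 and 1293 (16.7%) with at least 500 UMIs. Thinning to 2000 UMIs gave 2.97 CPM of Ghsr in neuron-like cells (5.75 unthinned), 9.90 CPM of Lepr there (6.81) and 133 CPM of Adipor2 in mature oligodendrocyte-like cells (122), and the cause was not tested. The other 5 moved values are the genes most like each receptor, given above. Leaving out 1 barcode number kept each result recomputed within its main interval or count, with 68.4 to 84.5 CPM for Insr in endothelial-like cells and 207 to 229 CPM for Ghr in the Npy cluster. Another type was highest for Lepr in 5 of 12 settings, for Ghr in 2, for Insr, Adipor1 and Adipor2 in 1 each and for Gipr in 0. For Ghsr it was 0 of 11. K-means named no endothelial-like and no microglia-like cells, so a change there was fixed in advance for Insr, Adipor1, Adipor2 and Lepr. It is the 1 setting of Insr, Adipor1 and Adipor2. Alternatives chosen after seeing the data (shared barcode sequences left out, the cell with the most UMIs left out, neuron-like cells clustered without the receptors) kept the values recomputed within their main intervals, although Lepr in microglia-like cells fell from 10.5 to 7.49 CPM without its top cell, below VLMC-like cells. Lepr in VLMC-like, endothelial-like and macrophage-like cells and in the Cck cluster was not recomputed and rests on 1 cell or barcode number, as given above. Depth limits Lepr, Gipr, Ghsr and Glp1r most, and every level of the 84 endothelial-like cells. Whether mice or conditions differ cannot be told from 1 sample.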
